A study of Mus musculus with 9 samples.

Results

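The libraries described here are the 3 RNA sequencing libraries of B16F10 cells whose titles carry Control 3, of 9 libraries in all. They were chosen by that title number and set against the 3 libraries titled Control 4 and the 3 titled Control 5. Each number has 1 library from cells in media alone, 1 from cells given mouse or human IFNγ at 50 ng/mL, and 1 from cells given that IFNγ with the inhibitor FK866 at 50 nM, each for 6 h. The labels say neither what a number stands for nor why the word Control also appears where IFNγ was given, and no gene edit or strain is named for any library. The 3 libraries of a number may therefore come from 1 culture. The p-values for genes below set a difference between numbers only against its variation over the 3 treatments. That variation is estimated partly from all tested genes together.

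B16F10 is a line of pigmented mouse melanoma cells selected for spread to the lung, and it is widely grafted into C57BL/6 mice. It is aneuploid, and cultures kept apart can come to differ in chromosome content and in gene silencing. IFNγ signals through its receptor's JAK kinases to induce IRF1, antigen presentation genes and PD-L1. FK866 blocks NAMPT, the enzyme that limits NAD salvage. Chromosome content was not measured here. In such bulk RNA, fewer cells of a type and less RNA per cell cannot be told apart.

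Library totals ran from 15317003 to 18466972 counts, and 15237 genes were tested, holding at least 99.88% of the counts of each library. All 8 melanocyte markers were present, with a summed level of 17535 to 18500 CPM (counts scaled to the library total, with TMM factors) in the Control 3 libraries and 15293 to 19580 CPM in the others. Of 12 leukocyte markers 6 had no count in any library, among them Ptprc, Itgam and Adgre1, and their summed level was 7.24 to 10.1 CPM in Control 3 and 3.85 to 13.2 CPM in the others. Of 13 fibroblast, endothelial and keratinocyte markers 5 had no count anywhere, and the rest summed to 8.76 to 14.7 CPM in Control 3 and 9.30 to 19.2 CPM in the others. With treatment means removed, the leading principal component of the most variable genes held 65.4% of the variance and separated the 3 Control 3 libraries from the other 6. The next held 26.5% and separated Control 4 from Control 5. These genes were chosen by their variance after that removal, which favours differences between numbers. The percentages hold for them only.

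With treatment as a block, 5869 of 15237 genes differed between Control 3 and the mean of Control 4 and 5 at an adjusted p below 0.05 (38.5%, edgeR). Of these, 2987 were higher (19.6%) and 2882 were lower (18.9%). A difference of at least 2-fold was called for 336 higher genes (2.21%) and 483 lower genes (3.17%). In each of the 3 treatments the Control 3 library lay above both others for 2620 genes (17.2%) and below both for 2612 (17.1%). All 3 Control 3 libraries lay above all 6 others, whatever the treatment, for 1579 genes and below them for 1677. The numbers 4 and 5 also differed from each other. Against Control 4 alone 4725 genes were called (31.0%), against Control 5 alone 6392 (42.0%), and between Control 4 and Control 5, 4733 (31.1%). These comparisons share libraries.

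Among genes at a mean of at least 5 CPM, with predicted genes, Riken clones and pseudogenes left out, Carmil2 had the largest rise. Carmil2 is an actin regulator that binds capping protein. Its level in Control 3 was 386 CPM in media, 508 with IFNγ and 489 with IFNγ and FK866, while the other 6 libraries ran from 1.24 to 3.74 CPM. The difference was 7.56 on the log2 scale (SE 0.10, adjusted p = 5.35e-21), and the groups were far apart in every treatment. The gene lies on chromosome 8 at 105686274 to 105698187 of GRCm38, plus strand.

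Ak1, an adenylate kinase, followed the same pattern at a smaller size: 106, 110 and 96.7 CPM in Control 3 and 13.8 to 19.9 CPM in the others (log2 2.67, SE 0.07). Il33, an alarmin cytokine, stood at 12.01 to 14.8 CPM against 1.70 to 2.98 CPM. Postn, a matricellular protein, stood at 13.8 to 17.5 CPM against 2.18 to 5.86 CPM. In all 3 of these genes no library of Control 3 overlapped the others. The 12 largest rises also held Hmcn2, Dglucy, Lrrc75b and the p53 target Tnfrsf10b, with log2 differences from 2.08 to 2.63.

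Osmr and Mcoln3 entered the largest rises for another reason. Osmr, the oncostatin M receptor, had mean levels of 50.2 CPM in Control 3, 0.059 in Control 4 and 24.9 in Control 5. Mcoln3, a lysosomal cation channel, had 67.6, 0.19 and 33.2 CPM in the same order. Both were nearly silent in Control 4, and against Control 5 alone the differences were 0.98 and 1.03 on the log2 scale.

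Lgals3, which encodes the sugar-binding protein galectin-3, had the largest fall among the same kinds of gene. Its level was 0.188, 0.066 and 0 CPM in the Control 3 libraries and 68.1 to 86.1 CPM in the other 6 (log2 -9.70, adjusted p = 2.22e-17, edgeR). With so few counts in Control 3 the size of this difference is imprecise, and no SE is given. The gene lies on chromosome 14 at 47367751 to 47386160, plus strand, where most genes were higher in Control 3 (below). Gja1, the gap junction protein connexin 43, had 0.279 to 0.628 CPM in Control 3, 52.4 to 56.6 in Control 4 and 21.7 to 31.5 in Control 5. Slc44a3, a choline transporter-like protein, had 2.37 ± 0.42 CPM in Control 3 (SD over the 3 treatments) and 47.8 to 79.6 CPM in the others. These genes were low in Control 3 alone, although Control 4 and 5 also differed from each other in Gja1.

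Of the genes at a mean of at least 5 CPM in Control 4 and 5, 8 had at most 3 counts over the whole of Control 3, and 6 of them are named here by their mean level. No gene met the reverse rule. That rule was stricter, with at most 3 counts allowed over the 6 libraries of Control 4 and 5 together, so the directions cannot be compared. Dpysl5, a collapsin response protein of neurons, had 0 counts in Control 3 and 609 in the other libraries, at least 96.8-fold lower when the group is set at 3 counts. Pde8a, a cAMP phosphodiesterase, had 1 count against 2326, so it was 1109 times lower (95% interval from counting, 199 to 43810). Hapln1, a link protein of cartilage matrix, had 3 counts against 1945, and it was also low in Control 5 (3.91 CPM, against 32.4 in Control 4). Naalad2 had 3 counts against 1243, Mfsd13a 3 against 891 and Adam22 2 against 572. These intervals and floors cover counting error only.

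**Figure D1:**
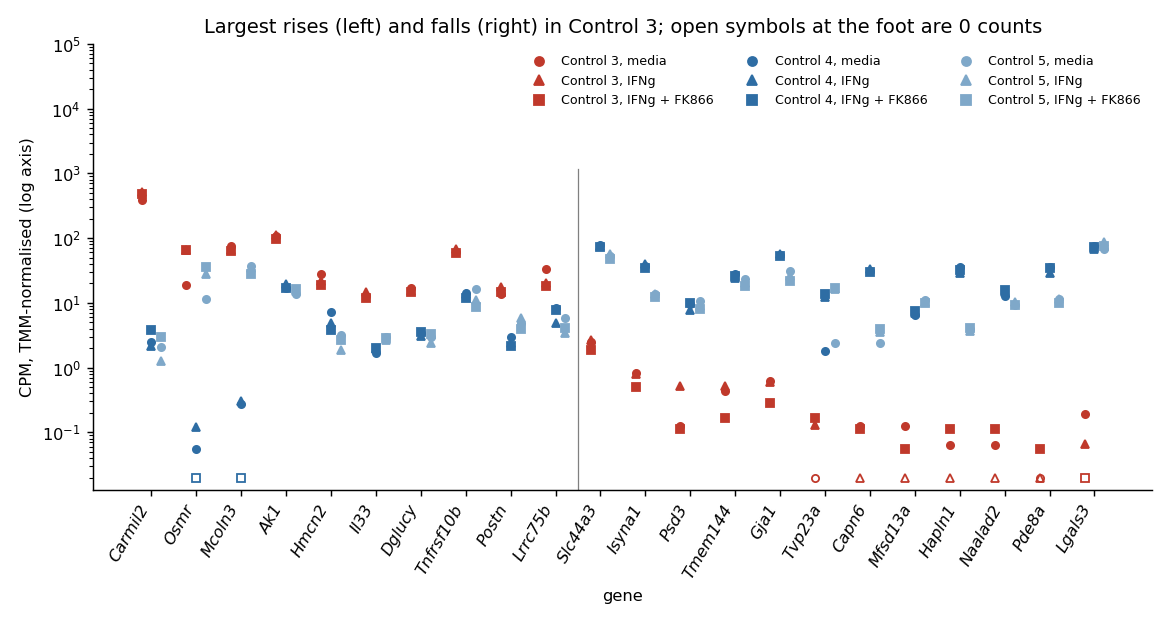
Level of each gene in CPM on a log axis, 1 symbol per library, for 10 of the 12 largest rises and the 12 largest falls; colour gives the number and shape the treatment. Carmil2 stands at 386 to 508 CPM in Control 3 and at most 3.74 CPM elsewhere, and Lgals3 does the reverse.

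Promoter windows are shown for the genes with the largest differences in each direction that had a window and whose RefSeq start lies within 1 kb of the GENCODE start. The largest rise and fall are therefore missing: Carmil2 had no window, and the Lgals3 starts lay more than 1 kb apart. Osmr, as described above, owes its rank to near silence in only part of the other libraries, and it was not silent in the rest. Each window runs from 250 bases before to 50 after the start, 5′ to 3′, on GRCm38.p6 as RefSeq gives it, with CG pairs in capitals. The Dpysl5 window (chr5:30711314-30711613, plus strand) holds 19 CG pairs, that of Pde8a (chr7:81213015-81213314, plus strand) 34, that of Osmr (chr15:6874264-6874563, minus strand) 22 and that of Ak1 (chr2:32621508-32621807, plus strand) 6.
Dpysl5: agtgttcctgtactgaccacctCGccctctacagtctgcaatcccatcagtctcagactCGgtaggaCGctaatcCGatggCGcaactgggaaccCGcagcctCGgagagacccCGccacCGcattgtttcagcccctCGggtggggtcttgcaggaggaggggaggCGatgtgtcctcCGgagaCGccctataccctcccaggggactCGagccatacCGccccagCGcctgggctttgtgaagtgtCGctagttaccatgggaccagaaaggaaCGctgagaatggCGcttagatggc
Pde8a: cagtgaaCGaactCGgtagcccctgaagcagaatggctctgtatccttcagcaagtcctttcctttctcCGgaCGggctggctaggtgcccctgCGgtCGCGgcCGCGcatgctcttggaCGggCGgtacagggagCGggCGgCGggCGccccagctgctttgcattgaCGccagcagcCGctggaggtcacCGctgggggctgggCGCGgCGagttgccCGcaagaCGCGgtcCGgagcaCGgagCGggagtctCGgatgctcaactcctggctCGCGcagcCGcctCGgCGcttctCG
Osmr: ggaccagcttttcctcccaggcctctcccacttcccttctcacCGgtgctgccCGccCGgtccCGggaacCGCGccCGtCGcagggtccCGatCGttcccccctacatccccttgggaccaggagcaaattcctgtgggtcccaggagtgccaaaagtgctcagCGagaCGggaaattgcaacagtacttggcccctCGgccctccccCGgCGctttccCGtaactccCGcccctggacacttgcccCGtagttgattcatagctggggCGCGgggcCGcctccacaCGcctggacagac
Ak1: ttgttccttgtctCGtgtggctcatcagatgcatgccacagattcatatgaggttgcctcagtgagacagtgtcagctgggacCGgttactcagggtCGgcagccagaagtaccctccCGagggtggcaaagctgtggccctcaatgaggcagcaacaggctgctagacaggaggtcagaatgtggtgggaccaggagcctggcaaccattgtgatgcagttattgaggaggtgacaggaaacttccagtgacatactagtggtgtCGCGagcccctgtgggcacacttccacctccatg
The median over the 9926 tested genes with a window was 21 CG pairs. A comparison of sets was void, because 7 of the 12 largest rises and 9926 of the 15237 tested genes had a window, below 80% of each set. DNA methylation was not measured.

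Gene differences were not spread evenly over chromosomes. For each chromosome the median deviation of its tested genes from the treatment mean was taken in each library. On chromosome 7 it was -0.245, -0.225 and -0.213 in the Control 3 libraries and 0.104 to 0.125 in the other 6, a shift of -0.343 on the log2 scale, or a median ratio of 0.789. On chromosome 14 it was 0.265, 0.262 and 0.248 in Control 3 and -0.167 to -0.081 in the others, a shift of 0.386, or a median ratio of 1.31. Neither chromosome had overlapping libraries. The values against Control 4 and Control 5 taken singly were -0.338 and -0.348 on chromosome 7 and 0.410 and 0.362 on chromosome 14.

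The shifts took in most genes of both chromosomes. Of 1074 tested genes on chromosome 7, 577 were called lower (53.7%) and 38 higher. Of 485 on chromosome 14, 309 were called higher (63.7%) and 23 lower. Elsewhere 2640 of 13678 genes were called higher (19.3%) and 2282 lower (16.7%). Ghitm, an inner mitochondrial membrane protein on chromosome 14, had 351 to 358 CPM in Control 3 and 111 to 123 CPM in the others (SE of the log2 difference 0.05). Glud1, glutamate dehydrogenase, on the same chromosome, had 250.5 to 256 CPM against 92.0 to 123 CPM. On chromosome 7, Tenm4 had 26.6 to 38.5 CPM against 54.1 to 84.3 CPM, and the metalloprotease Adam12 had 1.00 to 1.68 CPM against 23.6 to 40.9 CPM. Adam12, Pde8a and Lgals3 thus lay far outside the shift of their chromosome.

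**Figure D2:**
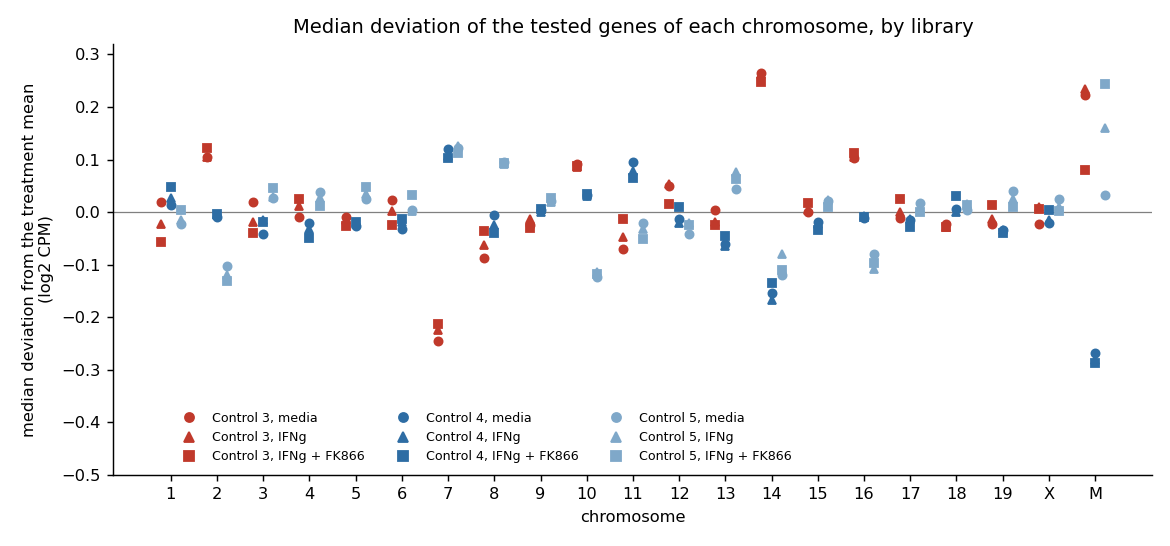
Median deviation of the tested genes of each chromosome from the mean of their treatment (log2 CPM), 1 symbol per library. On chromosome 7 the 3 Control 3 libraries sit near -0.2 and on chromosome 14 near 0.26, apart from the other 6.

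Smaller shifts were seen on chromosomes 2 (0.172), 16 (0.159) and 10 (0.132). Over each whole chromosome Control 3 was highest and Control 5 lowest. On chromosome 2 the difference was 0.117 from Control 4 and 0.228 from Control 5. The chromosomes other than 2, 7, 10, 14, 16 and the mitochondrial one had shifts between -0.097 and 0.058. Control 3 lay outside the others on chromosomes 9, 12 and 18 too, by 0.058 at most. An exact two-sided permutation test that reassigned the number within each treatment can reach no p below 0.037 (1 of 27 assignments), and 7 of 21 chromosomes were at it. After Benjamini-Hochberg adjustment over the 21 the smallest value was 0.111, so no chromosome passed.

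Bins of 10 Mb with at least 10 tested genes showed where the shifts lay. Of 260 bins, 23 were above 0.2 and 26 below -0.2 with no overlap between the Control 3 libraries and the others. All 15 bins of chromosome 7 (-0.392 to -0.247) and all 10 of chromosome 14 (0.289 to 0.476) passed. Of the 235 other bins, 24 passed, 10 of them on chromosome 2, all before 120 Mb. The 663 genes of that stretch had a shift of 0.251, with 315 called higher, and the 491 genes after it a shift of 0.061. The 10 bins differed from Control 4 by 0.078 to 0.169 and from Control 5 by 0.323 to 0.444, so none reached 0.2 against Control 4 alone. After 120 Mb Control 4 was the lowest, at -0.084 to -0.066, and Control 5 (0.016 to 0.048) overlapped Control 3 (0.014 to 0.067).

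Chromosome 9 held a bounded block. Its 226 genes between 30 and 60 Mb had medians of -0.214 to -0.172 in Control 3 and 0.071 to 0.151 in the others, a shift of -0.297, and 123 were called lower (54.4%). The other 660 genes of chromosome 9 had a shift of 0.042. On chromosome 12 the 64 genes between 40 and 60 Mb had a shift of -0.259, with 28 called lower and 4 higher. The lowest of the 260 bins, at -0.483, lay on chromosome 5, where 1 bin passed. Chromosomes 1, 4, 8, 10, 11 and 16 also held passing bins.

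**Figure D3:**
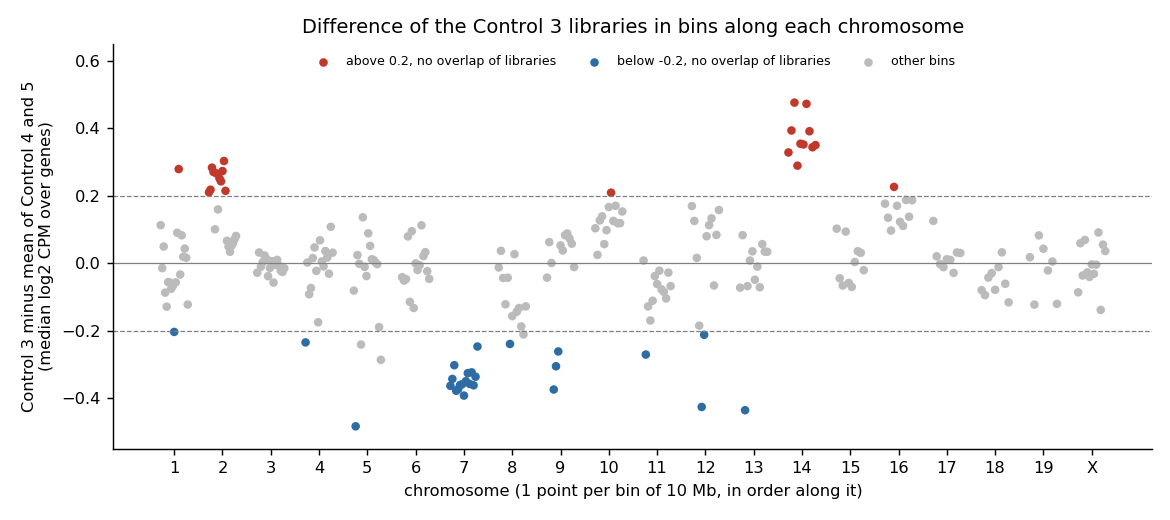
Median log2 difference between Control 3 and the mean of Control 4 and 5 in bins of 10 Mb, in order along each chromosome; coloured bins are past 0.2 in size (dashed lines) with no overlap of libraries. Every bin of chromosomes 7 and 14 is coloured, while chromosomes 2, 9 and 12 are coloured over a stretch. Some other chromosomes hold isolated coloured bins.

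On chromosome 13, 1 bin, from 20 to 30 Mb, stood at -0.436. It holds the main cluster of replication-dependent histone genes, whose proteins package newly copied DNA and whose RNAs mostly lack a polyA tail. The 39 tested histone genes of the bin had a shift of -0.695, with 30 called lower and 0 higher, and the other 31 genes a shift of 0.045, with 3 called each way. Over all chromosomes 39 of 51 histone genes were lower and 0 higher. Their share of the counts was 0.415% to 0.479% in Control 3, 0.597% to 0.645% in Control 4 and 0.806% to 0.931% in Control 5. The histone genes were grouped after the bin was seen and several are near-identical copies, between which reads may be split. The labels state polyA RNA. Rn7sk, another RNA without a polyA tail, had 8129 to 8892 CPM in Control 3, 8379 to 9400 in Control 4 and 12016 to 13595 in Control 5, so it was high in Control 5 and overlapped between Control 3 and 4. The summed share of Rn7sk, Rpph1 and ribosomal RNA was 3.04% to 3.90% in Control 3, 2.94% to 3.57% in Control 4 and 4.11% to 4.48% in Control 5. The part of such RNA in the histone result was not tested.

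Lists of genes were counted next, against 19.6% of all tested genes higher and 18.9% lower. Among targets of p53, the tumour suppressor that restrains growth after damage, 12 of 16 tested were higher and 0 lower, with a median difference of 0.99 on the log2 scale (-0.0019 over all genes). All 12 lay above both other numbers in every treatment. Cdkn1a, the cell cycle inhibitor p21, had 533, 661 and 618 CPM in Control 3, 291, 376 and 361 in Control 4 and 191, 233 and 212 in Control 5 (log2 1.17, SE 0.05, adjusted p = 7.90e-13). Trp53inp1, which aids p53-driven death, had 176 to 209.8 CPM in Control 3 and 56.5 to 91.0 CPM in the others. Tnfrsf10b, a TRAIL death receptor on chromosome 14, had 58.9 to 68.4 CPM against 8.58 to 16.6 CPM. Mdm2, which degrades p53, and Ccng1 were higher by 0.95 and 1.06, and Btg2 by 2.02. The Control 3 libraries did not overlap the other 6 in any of these 6 genes. Sesn1, Bax, Fas and Eda2r were not called, at 0.14, -0.12, -0.33 and 0.11. Trp53 itself was not in the list, and its sequence was not examined.

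The glycolysis list had 17 of 20 members higher and 0 lower, at a median of 0.44. Eno2 had 9.55 to 10.3 CPM in Control 3 and 2.86 to 5.20 CPM elsewhere (log2 1.44, SE 0.17). The lactate exporter Slc16a3 had 64.4 to 77.7 CPM against 16.5 to 48.2 CPM. Ldhb had 116 to 139 CPM against 52.3 to 70.7 CPM, and Pdk1, a kinase that inhibits pyruvate dehydrogenase, 59.6 to 77.2 CPM against 17.4 to 48.3 CPM. Gapdh and Pkm were higher by 0.22 each. The 3 members not called were Gpi1, Aldoa and Ldha, at -0.03, -0.06 and 0.04, and they are the 3 that lie on chromosome 7.

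Of 16 hypoxia genes 9 were higher and 0 lower (median 0.37). The list shares Pgk1, Pdk1, Ldha and Aldoa with the glycolysis list. P4ha1, a collagen hydroxylase, had 112 to 129 CPM against 58.9 to 85.6 CPM, and Vegfa 29.0 to 32.3 against 15.8 to 23.0 CPM. The hypoxia markers Car9 and Ankrd37 were not called and had mean levels of 1.96 and 0.648 CPM in Control 3.

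Of 13 mitochondrially encoded protein genes 11 were higher (median 0.34), but 6 lay above both other numbers in every treatment. The median difference was 0.51 from Control 4 and 0.23 from Control 5. Mitochondrial transcripts took 5.17% to 5.73% of the counts in Control 3, 3.66% to 4.05% in Control 4 and 4.94% to 5.32% in Control 5. Control 4 was thus low, and Control 3 and Control 5 lay close together.

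The list of ATF4 targets and amino acid stress moved the other way, with 13 of 17 lower and 1 higher at a median of -0.54. Asns, asparagine synthetase, had 119, 130 and 120 CPM in Control 3, 195, 181 and 179 in Control 4 and 266, 307 and 291 in Control 5 (log2 -0.91, SE 0.06, adjusted p = 3.46e-10). Psat1 of serine synthesis had 133 to 139 CPM in Control 3, 161 to 185 in Control 4 and 272 to 314 in Control 5. Slc7a5, a transporter of large neutral amino acids, had 132 to 152 CPM, 169 to 219 CPM and 326 to 427 CPM in that order. The 3 genes were lowest in Control 3 and highest in Control 5 without overlap, and the list's median was -0.30 against Control 4 and -0.90 against Control 5. Atf4 and Ddit3 were not called (-0.12 and 0.01). Phgdh was called at -0.50 but stood at 138 CPM in Control 3 and 141 in Control 4, so its call came from Control 5 at 271 CPM.

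**Figure D4:**
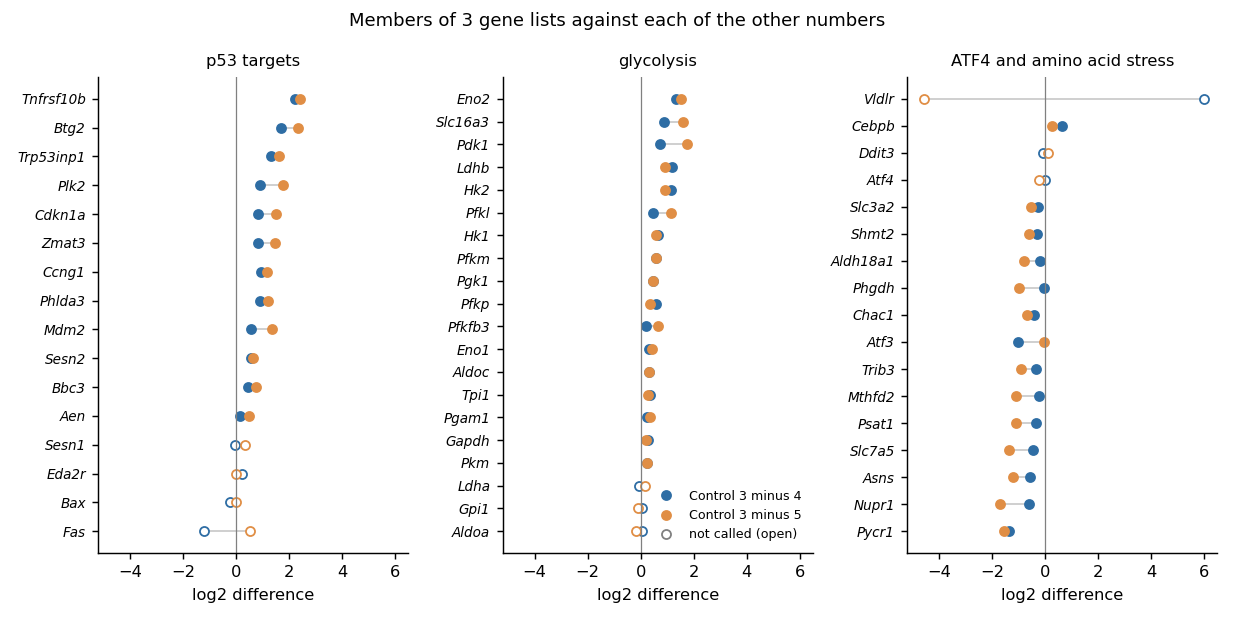
Log2 difference of Control 3 from Control 4 and from Control 5 for each tested member of 3 lists; open symbols were not called against both together. Most p53 and glycolysis members lie to the right of 0 against either number, and most ATF4 members to the left, farther against Control 5.

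Genes of growth were lower in part. Of 18 DNA replication genes 7 were lower and 0 higher, and Mcm3 of the replicative helicase had 184 to 187 CPM against 230.1 to 267 CPM. The replication list's median was -0.044 against Control 4 and -0.28 against Control 5, and 4 of its members lay below both others in every treatment. Of 15 mitosis genes 7 were lower and 1 (Nusap1, 0.16) higher. The mitotic kinase Plk1 had 95.1 to 102 CPM against 139.7 to 165 CPM. Top2a had 556 to 768 CPM against 815 to 1057 CPM. Cdk1, Ccnb1 and Pcna were not called, at 0.08, -0.10 and -0.11. Plk1 and Mki67 lie on chromosome 7.

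Extracellular matrix and protease genes were mostly higher, 9 of 16 with 1 lower. Sparc, a collagen-binding matrix protein, had 1201 to 1284 CPM in Control 3, 391.7 to 420.4 in Control 4 and 592 to 683 in Control 5 (log2 1.28, SE 0.05). Thbs1, thrombospondin 1, had 28.9, 488 and 464 CPM in Control 3 against 12.8, 242 and 249 in Control 4 and 23.6, 301 and 302 in Control 5, higher within each treatment. Lamb1, a laminin chain, was the member that was lower, at 3.57 to 8.10 CPM against 25.2 to 38.9 CPM. Among adhesion receptors 6 of 15 were higher and 3 lower. Itgav and Itgb3, which pair as the integrin αvβ3, were higher by 0.74 and 0.97, and Itga4 was lower by log2 -0.76.

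Melanocyte identity genes had no common direction, with 6 of 19 higher and 8 lower. The pigment genes Tyrp1, Pmel and Mlana were not called (0.06, 0.03 and -0.08), and Dct, on chromosome 14, was higher by 0.43. Mitf, the lineage's master factor, was lower by log2 -0.27, and the receptor Kit stood at 3.69 to 4.33 CPM against 8.32 to 16.8 CPM. Tyr, tyrosinase, had 174 to 237 CPM in Control 3, 97.4 to 140.1 in Control 4 and 338 to 459 in Control 5, so Control 3 lay between the others. Axl, a receptor kinase of dedifferentiated melanoma, was higher on chromosome 7 (27.2 to 28.3 against 8.71 to 16.3 CPM), while Nes, an intermediate filament protein of neural progenitors, was lower (72.4 to 82.0 against 139.8 to 219 CPM). The growth factor receptors Met and Erbb3 were lower, Met at 112 to 167 CPM in Control 3, 293 to 484 in Control 4 and 636 to 932 in Control 5.

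HOX genes, which keep positional identity, were called lower for 6 of 19 and higher for 3. Hoxa9 and Hoxa10 were among the higher ones, and 5 lower ones (Hoxb4, Hoxb5, Hoxb6, Hoxb8 and Hoxb9) are of the Hoxb cluster. Hoxb9 had 5.31 to 5.93 CPM in Control 3, 12.2 to 16.5 in Control 4 and 19.8 to 37.4 in Control 5. Hoxd13 had 0.126 to 0.856 CPM in Control 3 against 9.69 to 17.4 CPM (log2 -4.47, imprecise at so few counts). Of 31 imprinted genes 11 were tested, with 4 lower and 1 higher. Kcnq1ot1, an antisense RNA on chromosome 7, had 120 to 133 CPM against 167 to 309.9 CPM, and since the strand setting is not stated its reads cannot be told from those of Kcnq1.

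NRF2 and redox genes were split, 6 of 16 higher and 5 lower. Hmox1, heme oxygenase 1, had 160 to 191 CPM against 57.3 to 75.7 CPM, and Gclc of glutathione synthesis 141 to 155 CPM against 60.9 to 89.4 CPM. The quinone reductase Nqo1, held to be a classic NRF2 target, had 0.168 to 0.816 CPM in Control 3, 9.81 to 12.1 in Control 4 and 4.54 to 4.92 in Control 5. Gsta4 had no count in Control 3 and 0.262 to 2.08 CPM in the others. Cholesterol synthesis genes were called higher for 8 of 19 and lower for 2, with a median of 0.60 against Control 4 and -0.35 against Control 5, so Control 3 lay between the others. Hmgcs1 for example had mean levels of 162, 75.9 and 164 CPM in Control 3, 4 and 5.

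**Figure D5:**
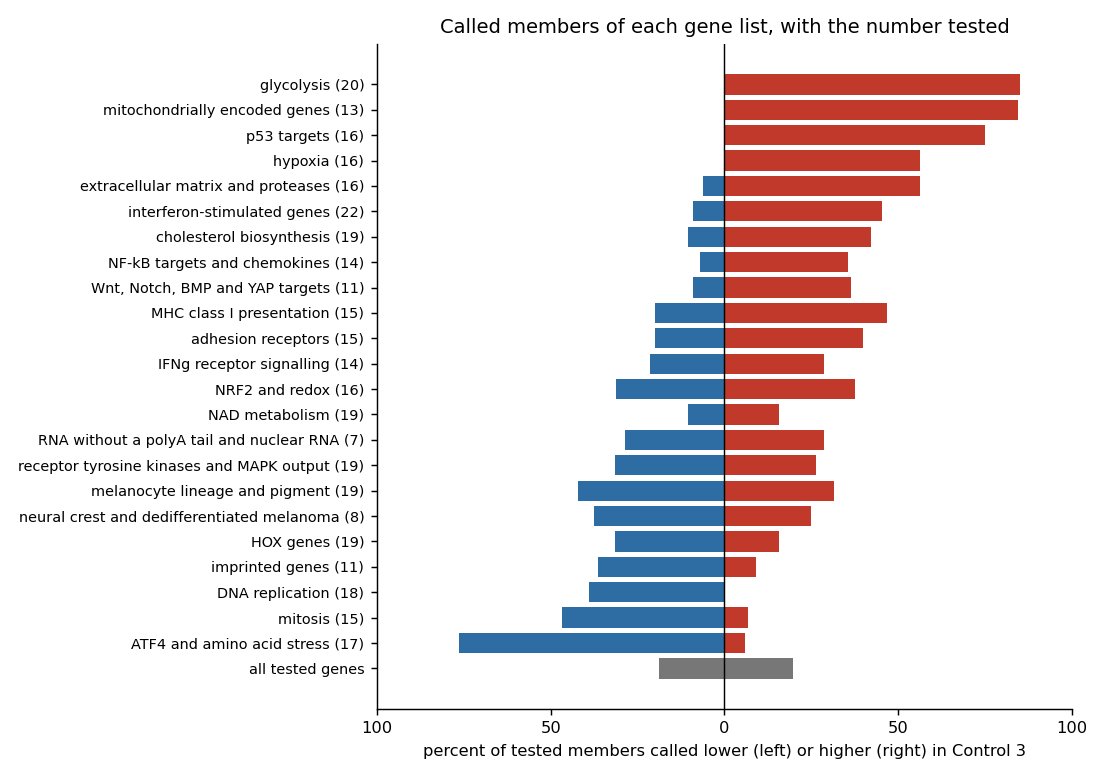
Percent of the tested members of each list that were called higher (right) or lower (left) in Control 3, for lists with at least 7 tested members; the grey bar is all tested genes. Glycolysis, mitochondrially encoded, p53 and hypoxia lists have higher members only, and the ATF4 list mostly lower ones.

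In further lists, members higher and lower were 5 and 6 of 19 for receptor kinases and MAPK output. They were 5 and 1 of 14 for NF-kB targets and 4 and 1 of 11 for Wnt, Notch, BMP and YAP targets. NAD metabolism had 3 and 2 of 19, and neural crest genes 2 and 3 of 8. The list of RNAs without a polyA tail and nuclear RNAs had 2 and 2 of 7. Lif, a cytokine of the interleukin 6 family, was the NF-kB list member with the smallest p, at 7.20 to 10.5 CPM against 1.70 to 3.17 CPM. Of 24 germline genes 3 were tested, and Ddx4 was called, at 0.961 CPM against 0.303 CPM. Of 13 sex-linked genes 4 were tested, and 1, Eif2s3x, was called at 0.14. Xist had 54 counts over all libraries, and the 1 tested gene of the Y chromosome, the predicted gene Gm47283, was not called (0.13, adjusted p = 0.388, edgeR).

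Nampt, the target of FK866, was lower in Control 3 in each treatment: 154, 486 and 465 CPM against 207, 578 and 613 in Control 4 and 216, 549 and 486 in Control 5 (log2 -0.30, SE 0.07, adjusted p = 0.00117). The ranges overlap across treatments. Irf1, Cd274, which encodes PD-L1, and B2m were not called, with differences of 0.03, 0.12 and 0.25 (SE 0.07, 0.07 and 0.12). Cxcl10, an interferon-induced chemokine, was lower by log2 -0.98 in all, -1.61 from Control 4 and -0.34 from Control 5, and Control 4 was the high one (1761 CPM with IFNγ, against 682 and 840).

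Genes of the interferon response differed in level without a single direction. Of 22 interferon-stimulated genes 10 were higher and 2 lower, but 1 lay above both other numbers in every treatment, and the median was -0.12 against Control 4 and 0.56 against Control 5. Of 14 genes of IFNγ receptor signalling 4 were higher and 3 lower. Ciita, the class II transactivator, had no count in media in any library and 21.8 and 24.1 CPM in the treated Control 3 libraries, against 39.1 to 50.7 CPM in the others. Of 15 class I presentation genes 7 were higher and 3 lower. Psme1 and Psme2, subunits of the immunoproteasome activator on chromosome 14, were higher by 0.65 and 0.79, while H2-K1 and H2-D1 were lower by log2 -0.55 and -0.21. Reads of the H2 genes may be split among near-identical copies. IFNγ, averaged with and without FK866, raised 541 genes at least 2-fold over all numbers. Of these, 138 were higher and 117 lower in Control 3, where 19.6% of all tested genes were higher and 18.9% lower.

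Whether Control 3 responded to IFNγ differently was tested with 1 further column in the fit. The response is that against media over IFNγ with and without FK866 together, so any effect of FK866 is part of it. The fit leaves 3 residual degrees of freedom and assumes that Control 4 and 5 share a response. The Control 3 level in media is 1 library, which is assumed to vary like the others, and the fit cannot be made without it. The difference was called for 65 genes (0.427%) by edgeR, 16 with a higher and 49 with a lower response, and 10 of the 541 induced genes were among them. An unadjusted p below 0.05 was reached by 1651 genes. Tap1, the peptide transporter of class I presentation on chromosome 17, had the largest lower response among called genes at a mean of at least 5 CPM. In media it stood at 5.34 CPM in Control 3, 0.712 in Control 4 and 0.418 in Control 5, and with IFNγ at 176, 117 and 139 CPM. The difference in response was -2.70 on the log2 scale (SE 0.30, adjusted p = 2.50e-05), while Control 3 was the highest of the 3 numbers both in media and after IFNγ. Its neighbour Tap2 had 0.753, 0.110 and 0.060 CPM in media and was not called (adjusted p = 0.138). Hk2, which opens glycolysis, went from 153 CPM in media to 291 and 285 CPM in the treated Control 3 libraries, while Control 4 had 117, 102 and 105 CPM and Control 5 126, 116 and 135 CPM. Its response differed by 1.01 (adjusted p = 2.50e-05, edgeR). Hk2, a member of the glycolysis list, was picked for its response after the values were seen. That response was not followed through the alternatives below.

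Of the 65 genes, 34 are of the annotation class TEC, transcripts whose status the annotation leaves to experiment, all with a lower response, and 22 are protein-coding. The class holds 1040 of the 15237 tested genes. The TEC share of the counts went from 0.378% in media to 0.292% and 0.277% in the treated Control 3 libraries. In Control 4 it went from 0.294% to 0.338% and 0.412%, and in Control 5 from 0.252% to 0.293% and 0.425%. When genes of this class were left out, a choice made after seeing the data, 10 genes were called, and the part of the class's share in the count was not tested. The count also ran from 14 to 133 as single libraries were left out. It was 14 without the Control 3 library given IFNγ and FK866, 132 without that given IFNγ alone, and 133 without the Control 4 media library. No alternative could leave out the Control 3 media library, on which every call of a different response rests.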

How the data were processed

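The authors deposited 1 table of raw counts per gene for the 9 libraries, with 55487 genes. The submitters' processing notes name cutadapt 1.16, STAR 2.7.6a, featureCounts 1.6.3, DESeq2 1.30.1, GRCm38 and mm10, with no role given, per the submitters' processing notes; neither the strand setting nor the annotation is stated there. Columns were matched to libraries by the identifier in each title.

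Gene IDs were matched to GENCODE M21 (55227 of 55487) for positions. Genes passing filterByExpr by treatment (15237) were fitted in edgeR 4.0.16 (R 4.3.3) with TMM scaling and terms for number and treatment, which leaves 4 residual degrees of freedom. Control 3 was set against the mean of Control 4 and 5 by the quasi-likelihood test, with Benjamini-Hochberg adjustment over all tested genes. SE values are the log2 difference over the square root of the test's F statistic, so they are unreliable where a group has few counts. Chromosomes and bins of 10 Mb used medians of log2 CPM (prior count 2) centred by treatment. The fits were tested on simulated data. limma 3.58.1 and DESeq2 1.42.0 served as alternatives.

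Named were the 12 largest rises and falls at a mean of at least 5 CPM with Control 3 outside the others in each treatment. Genes at no more than 3 counts in Control 3 were also named. Both sets left out predicted genes, Riken clones, pseudogenes and names that are accessions. Up to 3 called members per list and genes of the shifted chromosomes were added. For the IFNγ response the 6 largest called effects each way at a mean of at least 5 CPM were taken. Other list members are given beside them. Members and lists were chosen with earlier results of these data known. Segments and histone genes were singled out after their values were seen. The correlation of treatment-centred values was 0.555 to 0.728 within a number and -0.477 to -0.112 between numbers. Centring over the numbers itself pushes the latter to negative values, so the comparison is no test of agreement. Some items are not reported here.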

Additional observations from a re-analysis of the deposited data

Results flagged for a closer look

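The response to IFNγ differed between Control 3 and the other numbers for 65 genes, by edgeR's test of the difference itself, in which the Control 3 level in media is 1 library; the leading named ones follow, on the log2 scale. Hist1h2an (11.64) and Hist1h2ak (6.21), near-identical histone genes, were nearly absent in Control 3 media alone: Hist1h2ak stood at 0.690 CPM there, against 51.9 and 53.7 in the treated Control 3 libraries and 65.4 to 117 CPM elsewhere. Hist1h2an had 0 CPM in that library, so its value depends on the prior count and is no bound. Responses were also higher for Art3 (2.43), Zfp536 (1.74), Gm1821 (1.46) and Pycard (1.31). They were lower for Tap1 (-2.70), Gm47023 (-2.47), Gm47016 (-1.93), Gm42843 (-1.90), Phxr4 (-1.85) and Gm37626 (-1.83).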

How the results depend on the processing

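Of 103 named genes 73 kept their direction and call in the difference between numbers under all of the 21 alternatives in which they were tested. Of 12 genes named for the IFNγ response, 4 kept theirs under all of the 14 alternatives in which they were tested. The other 8 lost their call in some. Irf1, not called, turned to -0.017 with limma-voom, -0.068 with no treatment term, -0.074 without the 3 Media libraries, -0.071 against Control 4 only and -0.074 to 0.107 as single libraries were left out; against Control 4 only, Cd274 turned to -0.15 and B2m to -0.015. The 5869 genes that differ in Control 3 ran from 4210 to 5948 as single libraries were left out, lowest without Control 3 IFNγ. There were 3896 (1943 genes higher in Control 3) with no treatment term and 3844 (1967 higher, 1877 lower) without the 3 IFNγ libraries. At 2-fold it was 113 higher and 134 lower at a mean of at least 5 CPM, and 536 higher against Control 5 only. The 65 response genes became 30 with DESeq2 (9 higher, 21 lower), 9 higher with limma-voom, 32 at 5 CPM (5 and 27), 13 without the 3 FK866 libraries (6 and 7), 174 without the 3 IFNγ libraries (30 and 144) and 10 without TEC genes (5 and 5). Leaving out single libraries gave 14 to 133 (5 to 70 higher, 8 to 111 lower); this could not be fitted without Control 3 Media. Among genes not called, which are chosen by the difference itself so that the shift must shrink, chromosomes 7 and 14 shifted by -0.119 and 0.106, and 0 chromosomes passed 0.2. Single libraries left out gave 2 to 3. Bins of 5 Mb gave 78 (34 higher, 44 lower), and a size of 0.3 gave 29 (10 and 19). No paired analysis was possible because the number is itself the comparison; treatment served as the block.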
